A study of Mus musculus with 12 samples.

Results

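Transporters that carry amino acids, peptides and related small molecules across cell membranes were followed in mouse colon epithelium. The genes were all symbols of the solute carrier families Slc1a, Slc3a, Slc6a, Slc7a, Slc36a, Slc38a and Slc43a that end in a plain number, plus the peptide transporter Slc15a1. By this rule 60 of the 24391 gene symbols in the deposited tables were members, 7 of Slc1a, 2 of Slc3a, 17 of Slc6a, 15 of Slc7a, 4 of Slc36a, 11 of Slc38a, 3 of Slc43a and Slc15a1. Expression was given as FPKM, a read count divided by gene length and a size factor of the library. The median ratio of a library's values to the geometric gene means was 1.00569 in every library, so the scaling followed that median and not total reads. Of the members, 30 reached 1 FPKM in 4 or more of the 12 libraries and were tested. Another 27 were above 0 but under this limit, and 3 were listed at 0 in all 12 libraries.

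The libraries came from 18-week-old C57BL/6 mice in 3 groups of 4. They were AOM/DSS with curcumin (called curcumin here), AOM/DSS, and control. AOM is azoxymethane, a carcinogen, DSS is dextran sulfate sodium, which inflames the colon, and curcumin is a polyphenol of turmeric. The epithelium was scraped from colon after its proximal segment and right-sided tumours had been cut away, and the labels do not say how other tumours were handled. Doses and times of treatment are not given in the sources used here. Nothing in the labels says that each library is a separate animal, so the p-values measure the spread between these samples.

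Solute carriers move amino acids against or down their gradients by coupling them to sodium, chloride, potassium or protons, or by exchanging one amino acid for another. In the gut, peptidases of the brush border cut dietary and microbial peptides, the peptide transporter takes up di- and tripeptides whole, and carriers of the apical membrane take up single amino acids. Exchangers of the basolateral membrane, each a light chain of the Slc7 family bound to the heavy chain Slc3a2, pass them on to the blood. Several members carry other cargo, among them creatine, taurine and serotonin.

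Read totals recovered from the FPKM steps ran from 5567988 to 15968416 per library. In 5 libraries, the replicates numbered 0 in all 3 groups and those numbered 1 in curcumin and AOM/DSS, the deposited values were relatively higher for GC-rich genes, and in the other 7 for AT-rich genes, so within-set values are printed beside the main results. The 8 epithelial markers summed to 5837 to 10325 FPKM in curcumin, 5858 to 8791 in AOM/DSS and 6184 to 9177 in control. Macrophage markers summed to 32.4 to 64.2 FPKM in curcumin, 55.2 to 96.3 in AOM/DSS and 36.1 to 94.7 in control, and B and plasma cell markers to 3.66 to 24.5 FPKM in curcumin, 16.4 to 109 in AOM/DSS and 10.9 to 37.3 in control. Endothelial markers were low, with 1 of 5 (Pecam1, at 3.29 to 4.65 FPKM in curcumin, 1.04 to 2.82 in AOM/DSS and 3.01 to 4.81 in control) at 1 FPKM in 4 or more libraries. AOM/DSS replicate 3 stood apart through 3 of the 4 Paneth cell markers. Lyz1 was at 100.3 FPKM there, Defa24 at 41.4 and Defa17 at 32.6, against at most 0.510 FPKM of Defa24 in curcumin and 0.171 in control. The fourth, Mptx2, was lowest there, at 2.80 FPKM, against 8.31 to 19.5 in curcumin and 10.1 to 22.5 in control. That library also had the highest sums of fibroblast markers (24.1 FPKM) and smooth muscle markers (23.0 FPKM), and the highest level of the plasma cell gene Jchain (53.0 FPKM). Among the members, Slc38a4 had 97 reads in that library and at most 5 in any other. In scraped tissue, fewer cells of a type and less RNA per cell cannot be told apart.

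In AOM/DSS, the peptide transporter Slc15a1, the serotonin transporter Slc6a4 and the purine base carrier Slc43a3 fell and the glycine transporter Slc6a9 rose, against control. These were 4 of 30 tested members, beside 1.27% of all 12052 tested genes, by limma on log2(FPKM + 1) with an adjusted p below 0.05. The single rise (1 member) stood beside 0.456% of all genes and the 3 falls beside 0.813%. Groups did not overlap for 7 members, against 6.02% of all genes, and 11 had an unadjusted p below 0.05, against 13.5%. Curcumin libraries were higher than AOM/DSS in Slc15a1 and Slc6a4, 2 of 30 members beside 1.08% of all genes (0.73% higher), and lower in 0 (0.348% of all genes, 0 members by voom on the recovered reads, and 1, Slc6a9, with library weights). Without AOM/DSS replicate 3, which stood apart, 3 members were called in AOM/DSS against control and 2 in curcumin against AOM/DSS. The member lost was Slc43a3, which kept its call in only 1 of the 12 fits without 1 library. In the second comparison 0 members were called without curcumin replicate 0 or 3, and 1 (Slc15a1) without curcumin replicate 1 or 2. Groups did not overlap for 4 members (9.22% of all genes). Both comparisons use the same AOM/DSS libraries, so opposite signs in them are not independent. Between curcumin and control limma called 0 members, beside 0.141% of all genes. There 5 members had an unadjusted p below 0.05 (12.2% of all genes), and groups did not overlap for 4 (8.26%). By voom on the recovered reads 0 members were called there, and with library weights 1 (Slc1a4). The median log2 fold change of the 30 members lay near that of all genes in each comparison, at 0.06 against 0.02 for AOM/DSS minus control, 0.08 against -0.01 for curcumin minus AOM/DSS, and 0.04 against 0.01 for curcumin minus control.

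**Figure D1:**
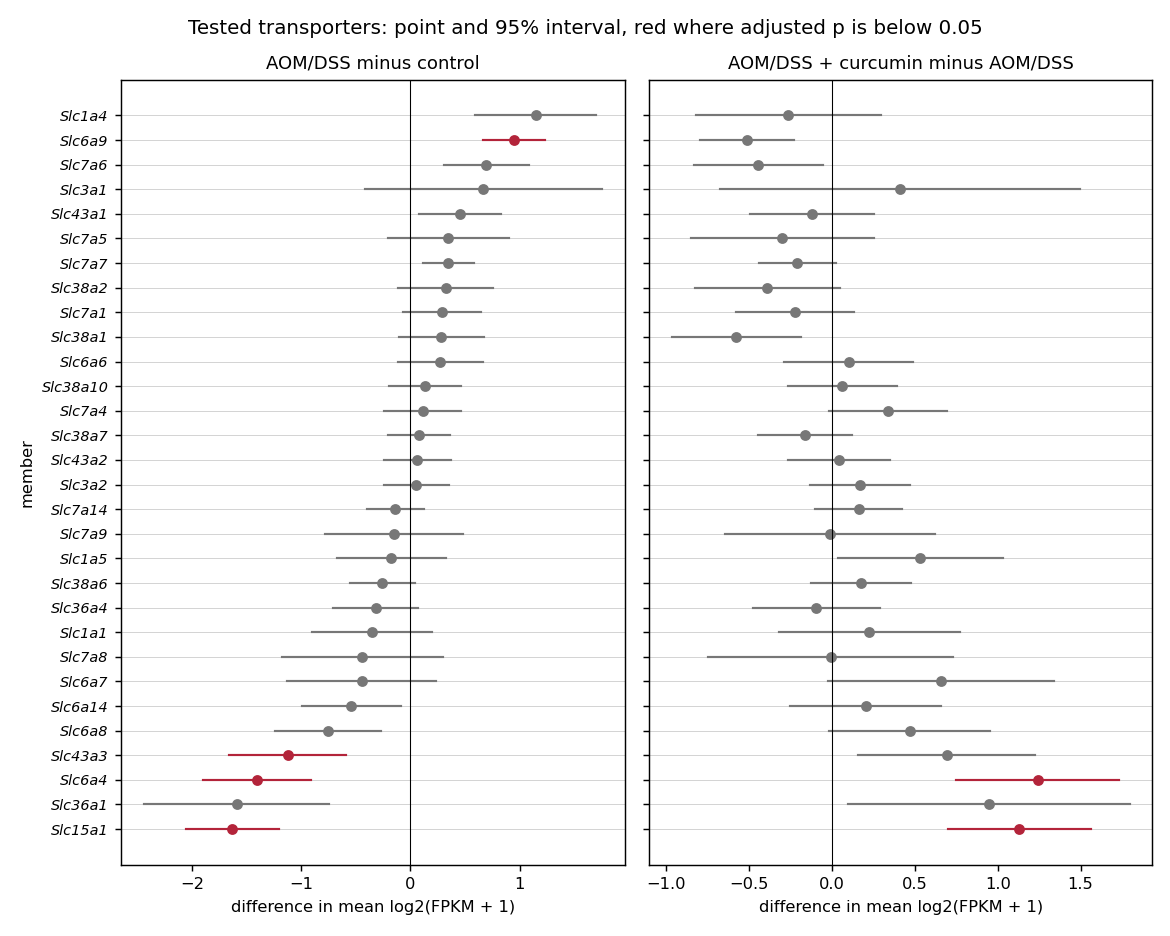
Difference in mean log2(FPKM + 1) of each of the 30 tested members, with its 95% interval from limma, for AOM/DSS minus control (left) and curcumin minus AOM/DSS (right), in the order of the left panel. Red marks an adjusted p below 0.05: 4 members at left, with Slc15a1 at the bottom (-1.63), and Slc6a4 and Slc15a1 at right (1.24 and 1.13).

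The promoters of Slc15a1 and Slc6a4 are printed because these were the members called in both comparisons. They are the 250 bases before each gene's start, from RefSeq on build GRCm38.p6, while the deposited values were made on mm9. That of Slc15a1 is chr14:121505255-121505504 on the minus strand with 62.0% GC, and that of Slc6a4 is chr11:76998347-76998596 on the plus strand with 64.8% GC, against a median of 52.4% in 32851 mouse promoter windows. Capitals mark the GC box GGGCGG on either strand, of which the Slc6a4 window held 3 and the Slc15a1 window 0.
Slc15a1: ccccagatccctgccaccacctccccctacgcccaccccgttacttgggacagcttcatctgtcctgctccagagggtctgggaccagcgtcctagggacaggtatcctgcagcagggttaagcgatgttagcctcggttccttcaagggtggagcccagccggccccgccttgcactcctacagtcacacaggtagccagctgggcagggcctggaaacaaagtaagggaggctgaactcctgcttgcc
Slc6a4: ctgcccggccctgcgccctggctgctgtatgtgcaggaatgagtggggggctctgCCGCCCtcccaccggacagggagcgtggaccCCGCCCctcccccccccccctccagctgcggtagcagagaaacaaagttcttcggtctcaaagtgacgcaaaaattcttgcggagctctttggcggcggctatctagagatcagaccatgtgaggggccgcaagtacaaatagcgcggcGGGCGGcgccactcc
GC boxes stood in 32.7% of all windows. Neither printed window held the amino acid response element TGATGNAA (3.45% of all windows), the E-box CACGTG (6.02%) or the TATA box TATAAA (12.4%), each searched on both strands, and no match says only that these letters are not in the window.

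Of the proton-coupled carriers 3 of 5 were tested, and 1 of them, Slc15a1, was called. Slc15a1 (PepT1) takes up di- and tripeptides with protons and is best known from the small intestine. It was at 112, 83.1, 88.9 and 108 FPKM in curcumin, 40.8, 49.8, 59.9 and 30.1 in AOM/DSS and 127, 131, 119.7 and 179 in control libraries. Each AOM/DSS library lay below every curcumin library, and every curcumin library below every control library. Slc15a1 fell in AOM/DSS against control (log2 fold change -1.63 with SE 0.20, adjusted p = 0.00274, 95% interval -2.06 to -1.20), and was higher in curcumin than in AOM/DSS (log2 fold change 1.13 with SE 0.20, adjusted p = 0.0170). The difference between curcumin and control did not pass (-0.50, adjusted p = 0.344), with an interval of -0.93 to -0.07. Inside the GC-rich and the AT-rich libraries the differences were -1.47 and -1.71 for AOM/DSS minus control, and 1.08 and 1.18 for curcumin minus AOM/DSS. The first call held in all 12 fits that left out a library (limma adjusted p up to 0.0137) and without AOM/DSS replicate 3 was at -1.45 (adjusted p = 0.00465). The curcumin call was lost without curcumin replicate 0 or 3 (adjusted p = 0.0577 and 0.0525).

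Markers of small intestine enterocytes, the cells in which Slc15a1 is best known, summed to 349 to 518 FPKM in curcumin, 131 to 362 in AOM/DSS and 117 to 615 in control. Among them the retinol-binding protein Rbp2 was at 69.1 to 109 FPKM in curcumin, 23.8 to 36.1 in AOM/DSS and 34.3 to 62.7 in control, and was higher in curcumin than in AOM/DSS (log2 fold change 1.58, adjusted p = 0.00338). Fabp2, a fatty acid-binding protein, was at 236 to 389 FPKM in curcumin, 90.6 to 294 in AOM/DSS and 62.03 to 559 in control, with its top value in control replicate 1. Fabp6 was at 13.7 to 21.1 FPKM in curcumin, 12.4 to 30.2 in AOM/DSS and 11.6 to 22.1 in control. Curcumin minus AOM/DSS did not pass for Fabp2 (0.69, adjusted p = 0.608) or Fabp6 (0.09, adjusted p = 0.926) by limma. The sugar-splitting enzyme Sis reached 7.51 FPKM in AOM/DSS replicate 3 and at most 0.149 in control. Sis, Lct, Apoa4 and Treh stayed under the filter. Control libraries, the highest in Slc15a1, held both the lowest and the highest of the sums, and the part of these cells in the result was not tested.

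Slc36a1 (PAT1), which carries proline, glycine and alanine with protons across the apical and lysosomal membranes, was at 47.9, 51.8, 42.8 and 40.4 FPKM in curcumin, 31.6, 42.6, 20.4 and 10.1 in AOM/DSS and 103, 38.6, 58.5 and 112 in control libraries. Control libraries were spread widely, and AOM/DSS overlapped them through control replicate 1. The difference between AOM/DSS and control was close in size to that of Slc15a1 and did not pass (log2 fold change -1.59 with SE 0.39, adjusted p = 0.0698). It passed without control replicate 1 (adjusted p = 0.0413) or AOM/DSS replicate 1 (adjusted p = 0.0392), with library weights (adjusted p = 0.0252), and with a GC covariate (adjusted p = 0.0206). AOM/DSS replicate 3, the library with Paneth cell genes, held the lowest value, and without it the difference was -1.22 (adjusted p = 0.138). Curcumin against AOM/DSS gave 0.95, adjusted p = 0.282. Slc36a4 (PAT4), a carrier of proline and tryptophan, averaged 1.19 ± 0.128 FPKM in curcumin, 1.35 ± 0.404 in AOM/DSS and 1.96 ± 0.704 in control (SD, n = 4 each) and passed in no comparison (curcumin minus control -0.41, adjusted p = 0.375).

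**Figure D2:**
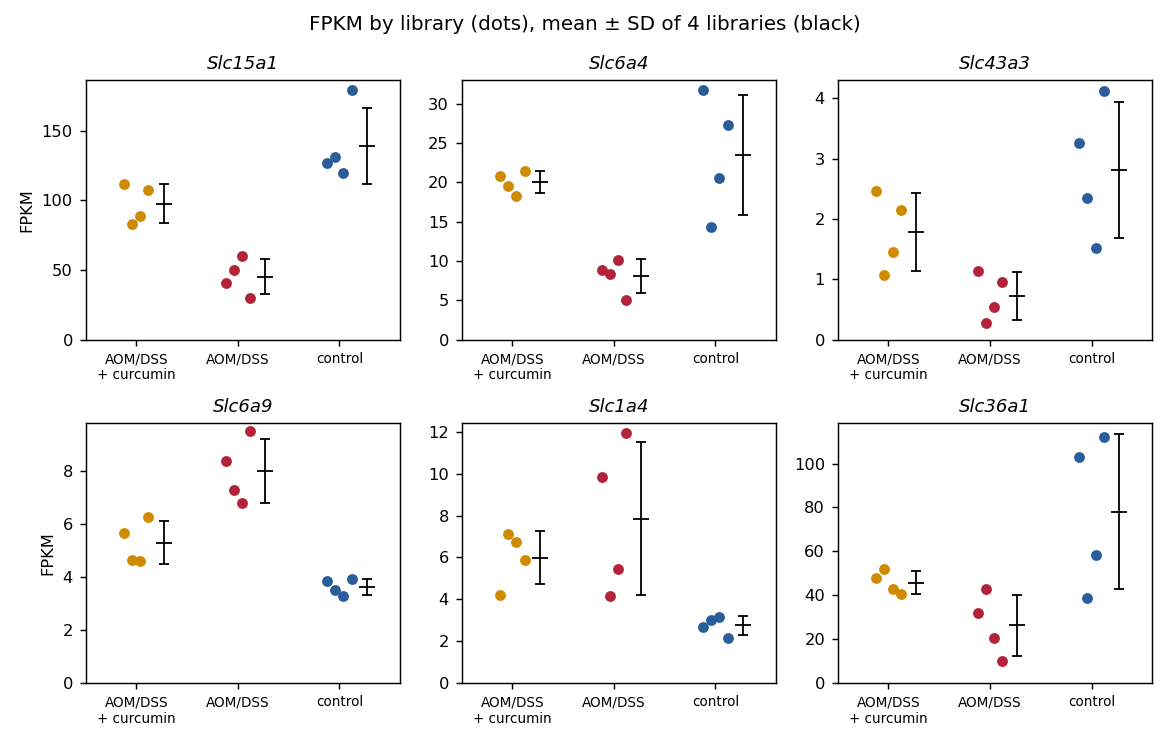
FPKM of 6 members by library (dots), with mean ± SD of 4 libraries in black, for curcumin, AOM/DSS and control from left to right; each panel has its own axis from 0. In Slc15a1 and Slc6a4 all 4 AOM/DSS dots lie below every dot of the other groups, in Slc6a9 all 4 lie above them, and the control dots of Slc36a1 span 38.6 to 112 FPKM.

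Of the sodium- and chloride-dependent Slc6 family 6 of 17 members were tested, of which 1 rose and 1 fell in AOM/DSS. Slc6a4, the serotonin transporter, clears serotonin released by enterochromaffin cells and is also known from neurons and platelets. It was at 20.8, 19.5, 18.3 and 21.4 FPKM in curcumin, 8.83, 8.35, 10.1 and 5.07 in AOM/DSS and 31.7, 14.3, 20.5 and 27.3 in control libraries. All AOM/DSS libraries lay below all others, while curcumin and control overlapped. Slc6a4 fell in AOM/DSS against control (log2 fold change -1.40 with SE 0.23, adjusted p = 0.00994) and was higher in curcumin than in AOM/DSS (log2 fold change 1.24 with SE 0.23, adjusted p = 0.0200). Curcumin minus control was -0.16 (95% interval -0.65 to 0.33, adjusted p = 0.812). The differences inside the GC-rich and AT-rich libraries were -1.77 and -1.36 for AOM/DSS minus control and 1.14 and 1.34 for curcumin minus AOM/DSS. The fall was called in all 12 fits without 1 library (adjusted p up to 0.0448) but not in a fit of these groups alone (adjusted p = 0.0565). The curcumin difference lost its call without any single curcumin library (adjusted p up to 0.0625). Neuron and glia markers were near 0 in each group, and summed to 1.77 to 2.61 FPKM in curcumin, 1.16 to 2.55 in AOM/DSS and 1.92 to 3.72 in control over 7 markers.

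Slc6a9 (GlyT1), a glycine transporter, was at 5.65, 4.63, 4.62 and 6.28 FPKM in curcumin, 8.38, 7.29, 6.79 and 9.52 in AOM/DSS and 3.86, 3.49, 3.27 and 3.91 in control libraries. The 3 groups did not overlap, with control lowest and AOM/DSS highest. Slc6a9 rose in AOM/DSS against control (log2 fold change 0.95 with SE 0.13, adjusted p = 0.00419) and was called in all 12 fits without 1 library (adjusted p up to 0.0217). Curcumin against AOM/DSS (-0.51, adjusted p = 0.0858) and against control (0.44, adjusted p = 0.204) did not pass, the first with the exception of library weights (adjusted p = 0.0404). The values inside the GC-rich and the AT-rich libraries were 0.86 and 0.99 for AOM/DSS minus control. In the GENCODE vM21 annotation 30.2% of its exon bases lie opposite exons of B4galt2, Ccdc24 and Gm17114, and the strand setting of the counting is not given, so its level is uncertain. B4galt2 and Ccdc24 stayed under the filter. Its counts were 58 to 465 reads per library.

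Slc6a14 and Slc6a8 had the highest levels of all members. Slc6a14 (ATB0,+), which carries neutral and basic amino acids, was at 245, 226, 294 and 322 FPKM in curcumin, 207, 162, 368 and 241 in AOM/DSS and 321, 336, 325 and 379.7 in control libraries. AOM/DSS libraries were spread from the lowest value of the 12 to one among the control values, so the groups overlapped. AOM/DSS minus control was -0.54, adjusted p = 0.275, and -0.76 without AOM/DSS replicate 2 (adjusted p = 0.0484, by limma). Slc6a8, the creatine transporter, was at 256, 209, 213 and 178 FPKM in curcumin, 131, 225, 181 and 103 in AOM/DSS and 239, 217, 254 and 345 in control libraries. Its AOM/DSS mean was the lowest of the 3 groups, but AOM/DSS replicate 1 lay above the lowest control library (AOM/DSS minus control -0.76, adjusted p = 0.141, curcumin minus AOM/DSS 0.47, adjusted p = 0.364). Slc6a6, the taurine transporter, was at 23.7, 18.9, 20.8 and 25.02 FPKM in curcumin, 22.9, 17.9, 18.05 and 23.5 in AOM/DSS and 18.9, 19.2, 10.8 and 19.6 in control libraries. Control replicate 2 was low, and the other 11 libraries lay between 17.9 and 25.0 FPKM (AOM/DSS minus control 0.28, adjusted p = 0.551, curcumin minus control 0.38, adjusted p = 0.426). Slc6a7, a proline transporter best known from brain, averaged 3.51 ± 2.18 FPKM in curcumin, 1.78 ± 0.966 in AOM/DSS and 2.68 ± 0.821 in control and passed in no comparison (curcumin minus AOM/DSS 0.66, adjusted p = 0.361).

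Among the Slc1 exchangers and glutamate carriers, 3 of 7 were tested and 0 passed. Slc1a4 (ASCT1), an exchanger of alanine, serine and cysteine, averaged 5.98 ± 1.28 FPKM in curcumin, 7.84 ± 3.66 in AOM/DSS and 2.75 ± 0.447 in control (SD, n = 4 each). Every AOM/DSS and every curcumin library lay above every control library. The difference between AOM/DSS and control just missed the threshold (log2 fold change 1.15 with SE 0.26, adjusted p = 0.0502). Pseudocounts of 0.1 and 0.5, a filter at 5 FPKM, library weights, a GC covariate (adjusted p = 0.0422), voom on the recovered reads, and leaving out AOM/DSS replicate 1 or 2 each brought it past. Without AOM/DSS replicate 3, its highest library, it was 0.93 (adjusted p = 0.113). Curcumin minus control was 0.89, adjusted p = 0.193.

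Slc1a5 (ASCT2), the glutamine exchanger, was at 80.9, 87.3, 69.97 and 66.1 FPKM in curcumin, 62.03, 65.4, 47.1 and 37.9 in AOM/DSS and 79.9, 36.1, 59.2 and 69.6 in control libraries. Each curcumin library was above each AOM/DSS library, and control overlapped both. The difference between curcumin and AOM/DSS did not pass (0.53, adjusted p = 0.307). Slc1a1 (EAAC1), which takes up glutamate, aspartate and cysteine, was at 17.1, 17.3, 22.6 and 20.2 FPKM in curcumin, 20.8, 14.7, 22.9 and 9.90 in AOM/DSS and 25.3, 12.9, 24.2 and 24.7 in control libraries. Control replicate 1 lay far under the other 3 controls and inside the AOM/DSS range (AOM/DSS minus control -0.35, adjusted p = 0.598). Of the exon bases of Slc1a1 31.9% face 4430402I18Rik on the opposite strand, which stayed under the filter.

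The heavy chain Slc3a2 (CD98), partner of the exchangers Slc7a5 to Slc7a8, was at 42.7, 26.2, 26.7 and 28.2 FPKM in curcumin, 25.8, 27.4, 27.5 and 26.6 in AOM/DSS and 26.3, 24.6, 24.9 and 27.3 in control libraries. Levels were even across 11 libraries, and curcumin replicate 0 stood above them. Intervals for Slc3a2 were -0.24 to 0.36 for AOM/DSS minus control and -0.13 to 0.47 for curcumin minus AOM/DSS, and neither difference passed (adjusted p = 0.897 and 0.633, limma). Its partners for large neutral amino acids were far lower. Slc7a5 (LAT1) averaged 2.08 ± 0.152 FPKM in curcumin, 2.98 ± 1.47 in AOM/DSS and 2.07 ± 0.838 in control and Slc7a8 (LAT2) averaged 4.14 ± 0.801 FPKM in curcumin, 4.63 ± 2.77 in AOM/DSS and 6.36 ± 2.79 in control (SD, n = 4 each), with no call for either (AOM/DSS minus control 0.35, adjusted p = 0.604 and -0.44, adjusted p = 0.620). The highest library for Slc7a5 was AOM/DSS replicate 1, and Slc7a8 ranged from 1.63 to 8.33 FPKM within AOM/DSS.

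The 3 Slc43 carriers were expressed at low levels. Slc43a3, which carries purine bases rather than amino acids, was at 2.46, 1.06, 1.45 and 2.15 FPKM in curcumin, 1.14, 0.266, 0.536 and 0.953 in AOM/DSS and 3.25, 2.35, 1.52 and 4.11 in control libraries. All AOM/DSS libraries lay below all controls, and the counts were 6 to 133 reads. Slc43a3 fell in AOM/DSS against control (log2 fold change -1.12 with SE 0.25, adjusted p = 0.0487), a call that was lost in 11 of the 12 fits without 1 library and held without control replicate 2 (adjusted p 0.0238 to 0.169). Slc43a3 was also not called by voom on recovered reads (adjusted p = 0.0501). The call was lost as well with a pseudocount of 0.1, no filter, FPKM scaled to a common sum, or only the groups compared. Curcumin minus AOM/DSS was 0.69, adjusted p = 0.213. The 5 endothelial markers summed to 3.52 to 4.80 FPKM in curcumin, 1.42 to 4.44 in AOM/DSS and 3.36 to 7.05 in control. Pecam1 made up most of these sums and was lowest in AOM/DSS (AOM/DSS minus control -0.66, adjusted p = 0.142), while Cdh5, under the filter, had its highest value in AOM/DSS (1.08 FPKM in replicate 3), and their part in the Slc43a3 result was not tested. Slc43a1 (LAT3) averaged 0.988 ± 0.0685 FPKM in curcumin, 1.18 ± 0.391 in AOM/DSS and 0.595 ± 0.304 in control and Slc43a2 (LAT4) averaged 1.18 ± 0.269 FPKM in curcumin, 1.10 ± 0.0744 in AOM/DSS and 1.02 ± 0.252 in control, with 0 calls (AOM/DSS minus control 0.45, adjusted p = 0.258 and 0.07, adjusted p = 0.881).

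Carriers of basic amino acids and cystine passed in no comparison, with 7 of 14 tested. Slc3a1 (rBAT) and Slc7a9 (b0,+AT) together form the apical exchanger of cystine and basic amino acids. Slc3a1 was at 30.1, 9.99, 23.8 and 28.4 FPKM in curcumin, 13.9, 10.05, 18.6 and 23.7 in AOM/DSS and 2.99, 27.3, 7.62 and 11.8 in control libraries. The controls alone spanned almost the whole range of the 12 libraries, with replicate 0 lowest and replicate 1 near the top. The difference between curcumin and control, 1.08, was the largest positive one of any member in that comparison, and it did not pass (unadjusted p = 0.0509, adjusted p = 0.414). Control replicate 1, the highest control for Slc3a1, was the top library for Fabp2 (559 FPKM) but the lowest for Fabp6 (11.6 FPKM). For Rbp2 it was at 43.4 FPKM, inside the control range of 34.3 to 62.7. The part of small intestine cells in the Slc3a1 values was not tested. Of the exon bases of Slc3a1 26.5% face Prepl, so its level is uncertain. Slc7a9 averaged 8.54 ± 2.91 FPKM in curcumin, 8.91 ± 3.96 in AOM/DSS and 9.43 ± 1.95 in control, with intervals of -0.78 to 0.49 for AOM/DSS minus control and -0.65 to 0.62 for curcumin minus AOM/DSS.

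The basolateral exchangers Slc7a7 (y+LAT1) and Slc7a6 (y+LAT2), which trade basic for neutral amino acids, were higher in every AOM/DSS library than in every control library. Slc7a7 averaged 18.2 ± 2.18 FPKM in curcumin, 21.1 ± 1.56 in AOM/DSS and 16.3 ± 0.664 in control and Slc7a6 averaged 1.87 ± 0.514 FPKM in curcumin, 2.88 ± 0.503 in AOM/DSS and 1.41 ± 0.472 in control (SD, n = 4 each). Neither passed over all genes (AOM/DSS minus control 0.35, adjusted p = 0.156 and 0.70, adjusted p = 0.0818, limma). Slc7a7 shares 7.0% of its exon bases with Oxa1l on the opposite strand. Slc7a1 (CAT1), the general importer of arginine and lysine, averaged 3.76 ± 0.562 FPKM in curcumin, 4.55 ± 0.756 in AOM/DSS and 3.58 ± 0.934 in control (AOM/DSS minus control 0.29, adjusted p = 0.476). Slc7a4 averaged 7.89 ± 0.550 FPKM in curcumin, 6.14 ± 1.43 in AOM/DSS and 5.58 ± 1.16 in control, and all curcumin libraries lay above all controls (curcumin minus control 0.45, adjusted p = 0.293), with 13.3% of its exon bases facing P2rx6, which stayed under the filter. Slc7a14 averaged 1.32 ± 0.0658 FPKM in curcumin, 1.08 ± 0.119 in AOM/DSS and 1.29 ± 0.193 in control, with no call (AOM/DSS minus control -0.14, adjusted p = 0.677).

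Sodium-coupled neutral amino acid transporters of the Slc38 family had 5 of 11 members tested and 0 called in each comparison. Slc38a2 (SNAT2), which brings in small neutral amino acids and is induced in starved cells, was at 37.8, 26.1, 35.7 and 48.5 FPKM in curcumin, 47.5, 33.8, 64.4 and 49.8 in AOM/DSS and 33.9, 40.2, 34.7 and 43.5 in control libraries. AOM/DSS held the 2 highest values but also one at the level of the lowest control, and the differences did not pass (AOM/DSS minus control 0.32, adjusted p = 0.535, curcumin minus AOM/DSS -0.39, adjusted p = 0.406). Slc38a1 (SNAT1), a glutamine importer, averaged 6.20 ± 1.58 FPKM in curcumin, 9.65 ± 1.96 in AOM/DSS and 7.70 ± 1.14 in control, and its curcumin minus AOM/DSS difference was the most negative of the 30 members (-0.58, adjusted p = 0.160). Slc38a10 was at 24.5, 24.3, 23.2 and 24.4 FPKM in curcumin, 26.96, 25.2, 19.8 and 20.9 in AOM/DSS and 25.5, 16.6, 17.8 and 25.3 in control libraries. Curcumin libraries were tight and lay inside the control range (AOM/DSS minus control 0.13, adjusted p = 0.750). Slc38a7, a lysosomal glutamine transporter, averaged 4.16 ± 0.272 FPKM in curcumin, 4.80 ± 0.812 in AOM/DSS and 4.46 ± 0.670 in control, and Slc38a6 averaged 3.06 ± 0.281 FPKM in curcumin, 2.62 ± 0.528 in AOM/DSS and 3.31 ± 0.512 in control. Their AOM/DSS minus control differences were 0.08, adjusted p = 0.826 and -0.26, adjusted p = 0.459 by limma.

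**Figure D3:**
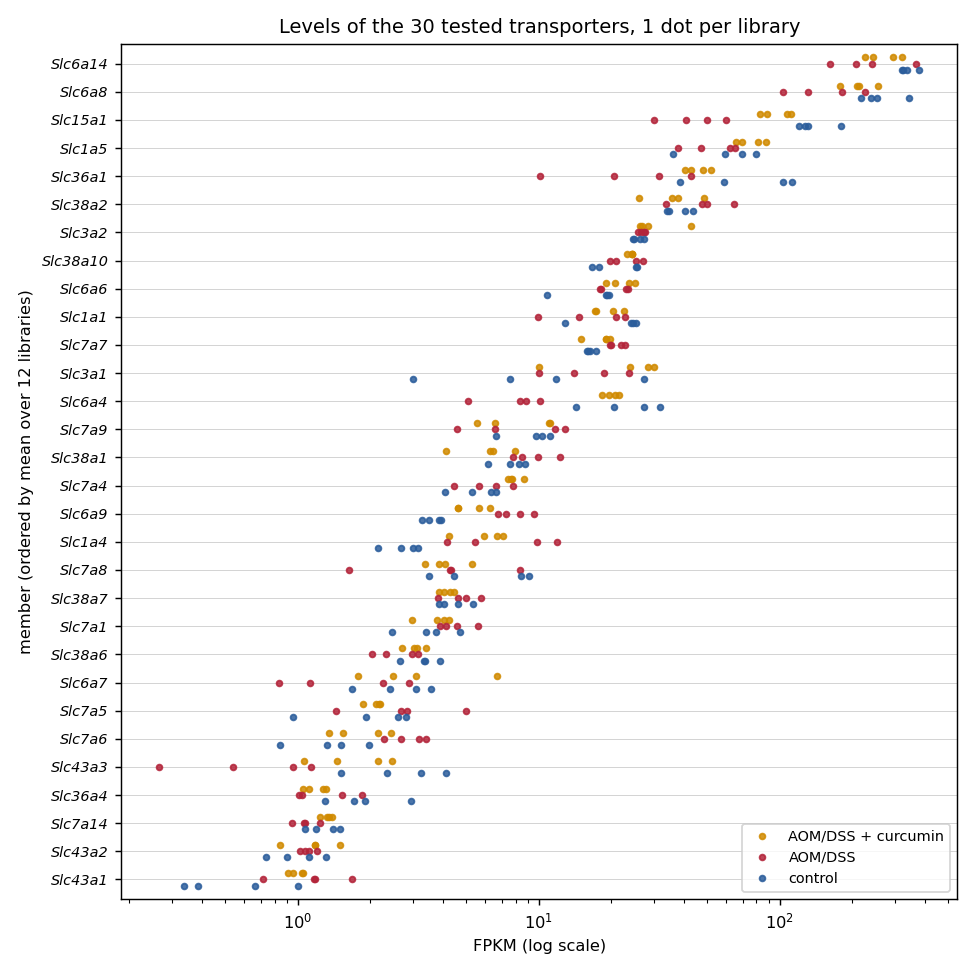
FPKM of the 30 tested members on a log axis, 1 dot per library, ordered by the mean over 12 libraries; within a row, curcumin is drawn above AOM/DSS and AOM/DSS above control. Slc6a14 and Slc6a8 are at the top, Slc15a1 is next, and the AOM/DSS dots of Slc15a1 and Slc6a4 stand left of the other groups.

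Levels per length differed widely between members. The mean over the 12 libraries was 285 FPKM for Slc6a14, 213 for Slc6a8, 94.1 for Slc15a1 and 63.5 for Slc1a5, against 0.922 for Slc43a1, the lowest tested. Both partners of the cystine exchanger were expressed, with Slc3a1 at 17.4 and Slc7a9 at 8.96 FPKM. Of the Slc3a2 partners, Slc7a7 was the most abundant at 18.5 FPKM, against 27.8 for Slc3a2 itself.

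Among the members under the filter, Slc6a19 (B0AT1), the main apical carrier of neutral amino acids in the small intestine, was at 1.05, 0.546, 1.50 and 1.70 FPKM in curcumin, 0.251, 0.0945, 0.286 and 0.110 in AOM/DSS and 0.359, 0.161, 0.118 and 0.462 in control libraries. Every curcumin library was above all 8 others. It had 13 to 69 reads per curcumin library, 2 to 8 per AOM/DSS library and 2 to 14 per control library. With no filter, which admits it to the test, the difference between curcumin and AOM/DSS was 0.86 (limma adjusted p = 0.0404), and that between curcumin and control did not pass (0.76, adjusted p = 0.125). Rbp2, a small intestine marker given above, was higher in the same group, but Fabp2 and Fabp6, the other such markers past the filter, were not called there. The part of these cells was not tested.

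Under the filter, 4 more members (Slc1a3, Slc7a2, Slc38a3 and Slc38a5) had a pair of groups that did not overlap, and were named after their values were seen. The share of all genes under the filter with such a pair was not computed, so this count is no result about the members. Slc1a3 (GLAST), a glutamate transporter, was at 0.178 to 0.630 FPKM in curcumin, 0.0637 to 0.145 in AOM/DSS and 0.153 to 0.370 in control, with AOM/DSS below both. Slc38a3 (SNAT3), a glutamine carrier, was at 0.159 to 0.300 FPKM in curcumin, 0.0374 to 0.0959 in AOM/DSS and 0.0722 to 0.266 in control, with curcumin above AOM/DSS. Slc7a2 (CAT2), an arginine carrier, was at 0.150 to 0.222 FPKM in curcumin, 0.0444 to 0.179 in AOM/DSS and 0.225 to 0.274 in control, with both treated groups below control. Slc38a5 had at most 3 reads in a library. With no filter, the smallest adjusted p among these 4 was 0.116 (limma, Slc38a3 in curcumin minus AOM/DSS). Slc7a11 (xCT), the cystine and glutamate exchanger, was at 0.255 to 0.405 FPKM in curcumin, 0.246 to 0.987 in AOM/DSS and 0.149 to 0.427 in control and highest in AOM/DSS replicate 3. Slc6a12, a carrier of betaine and GABA, reached 1.59 FPKM, and Slc38a9, a lysosomal arginine sensor, 0.977. Apart from these, Slc38a4 and Slc6a19, the others stayed at or under 0.461 FPKM except Slc38a11 (up to 0.545).

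**Figure D4:**
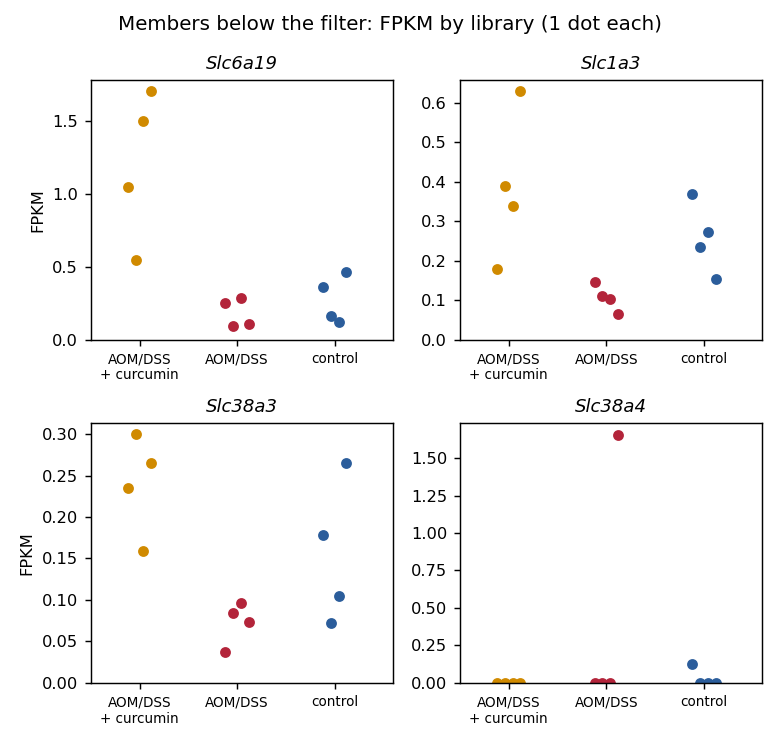
FPKM of 4 members under the filter, 1 dot per library, with curcumin, AOM/DSS and control from left to right and an axis from 0 in each panel. All 4 curcumin dots of Slc6a19 lie above the other 8, and Slc38a4 is at 0 except in AOM/DSS replicate 3 (1.65 FPKM) and control replicate 0 (0.124 FPKM).

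Other genes of amino acid handling were taken from 5 lists. Of 9 further carriers 7 were tested, among them the peptide transporter of lysosomes Slc15a4 and the mitochondrial carriers Slc25a12 and Slc25a13, and 0 passed in any comparison. Of 12 genes listed as brush border peptidases and partners 10 were tested and 0 passed. In curcumin against AOM/DSS, 8 of 10 were higher in mean, beside 49.1% of all genes. Without AOM/DSS replicate 3 it was 9 of 10. With all libraries, Lap3 and Xpnpep2 went the other way. Lap3 was lower in every curcumin library than in every AOM/DSS library (-0.32, adjusted p = 0.244, limma), and Xpnpep2 was at -0.24 (adjusted p = 0.742). Mep1a, a metalloprotease that releases peptides, averaged 222 ± 47.3 FPKM in curcumin, 166 ± 56.03 in AOM/DSS and 239 ± 76.1 in control (curcumin minus AOM/DSS 0.48, adjusted p = 0.489), and Naaladl1, an aminopeptidase, 40.9 ± 7.17 FPKM in curcumin, 22.5 ± 15.8 in AOM/DSS and 36.5 ± 6.05 in control (1.03, adjusted p = 0.158). For AOM/DSS minus control, 4 of 10 were higher in mean and 6 lower, beside 52.8% of all genes higher. Without AOM/DSS replicate 3 the count higher was 3 of 10. Anpep, aminopeptidase N, was at -0.65 (adjusted p = 0.150) and Ggt1 at 0.77 (adjusted p = 0.460, limma).

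The amino acid response, which ATF4 drives when amino acids run short, had 18 of 20 genes tested. In AOM/DSS against control 1 rose and 0 fell, and 16 of 18 were higher in mean, beside 52.8% of all genes (median log2 fold change 0.49, against 0.02 for all genes). Without AOM/DSS replicate 3 it was again 16 of 18. AOM/DSS replicate 1 held the highest value of the 12 libraries for Phgdh (19.3 FPKM), Shmt2 (16.7) and Asns (20.2), while Nupr1 was highest in replicate 3 (231). AOM/DSS replicate 2 lay inside the control range for Phgdh (4.38), Shmt2 (7.34) and Asns (12.2). The count without replicate 1 was not taken. The riser was Stc2, a secreted glycoprotein, at 8.45 ± 3.07 FPKM in curcumin, 8.52 ± 0.630 in AOM/DSS and 4.14 ± 0.715 in control (AOM/DSS minus control 0.90, adjusted p = 0.0457), and it lost the call in 10 of 12 fits without 1 library (adjusted p up to 0.116), those without any control or AOM/DSS library or without curcumin replicate 2 or 3. Nupr1, a stress-induced chromatin protein, was at 0.95, adjusted p = 0.0752, and Asns, asparagine synthetase, at 0.55, adjusted p = 0.266. Atf4 itself averaged 87.4 ± 17.2 FPKM in curcumin, 83.0 ± 12.9 in AOM/DSS and 73.9 ± 5.78 in control. In curcumin against AOM/DSS 0 passed, and 13 of 18 were lower and 5 higher in mean, beside 49.1% of all genes higher. In curcumin against control 0 passed and 16 of 18 were higher in mean (52.5% of all genes). The comparisons share libraries, so these counts are not independent.

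Of 16 genes of glutamine and arginine use, 15 were tested. The nitric oxide synthase Nos2, which consumes arginine, was the only one called (AOM/DSS minus control 1.22, adjusted p = 0.0315, lost in 6 of 12 fits without 1 library, curcumin minus AOM/DSS -1.94, adjusted p = 0.00341). Glutamine synthetase (Glul) averaged 278 ± 14.4 FPKM in curcumin, 287 ± 43.98 in AOM/DSS and 306 ± 45.9 in control, with no call. Of 14 genes of amino acid sensing by mTORC1, 10 were tested and 0 were called in any comparison.

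Promoter windows were found in RefSeq for 42 of the 60 members (63 windows, since a gene can have several starts) and for 22 of the 30 tested (32 windows). Among the windows of tested members, TGATGNAA stood in 2 of 32 (both of Slc7a7), CACGTG in 4 (of Slc36a1, Slc38a7, Slc43a1 and Slc7a14), GGGCGG in 17 and TATAAA in 3. These counts describe letters, not binding sites.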

How the data were processed

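RNA of scraped colon epithelium was sequenced in 12 libraries, 4 of AOM/DSS with curcumin, 4 of AOM/DSS and 4 of control. The deposited values are FPKM, 1 per gene symbol and library, and the files have no header. Per the submitters' processing notes the authors used featureCounts 1.5.1, TopHat2 2.1.1, Picard, DESeq2 1.14.1, Bowtie2 2.2.6 and R 3.4.0 with build mm9, and the strand setting is not given in the sources used here. All values of 19233 genes were whole multiples of a step within a tolerance of 0.001, which gave the reads per library.

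Genes with at least 1 FPKM in 4 libraries (12052) were tested with limma 3.58.1 (R 4.3.3) on log2(FPKM + 1), which understates changes of low genes. A single model held all 12 libraries, fitted 1 mean for each group and used an intensity trend (9 residual degrees of freedom). Adjusted p is Benjamini-Hochberg over all genes tested in 1 of 3 comparisons, with a threshold of 0.05. The test was checked on simulated data. GC content and exon overlap came from GENCODE vM21 (GRCm38), used by symbol, and 99.3% of tested genes had a GC value. Members, lists and tests were chosen with earlier results of these data known. Library values are printed for called members, Slc15a1, Slc3a1, Slc3a2 and the 10 of highest mean, and for Slc6a19, chosen after its values were seen. GC box and TATA box were also added later. Alternatives are listed in the closing section.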

Additional observations from a re-analysis of the deposited data

Results flagged for a closer look

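In 4 of 90 groups of 4 libraries, the highest or lowest value of a tested member lay far from the others for the range of its group (Dixon's test), and chance alone flags about 1 in 20 groups. Slc3a2, the CD98 heavy chain, was at 42.7 FPKM in curcumin replicate 0, with the next highest curcumin library at 28.2. Slc38a10 was at 23.2 FPKM in curcumin replicate 2, with the nearest at 24.3, so the gap is small and the other 3 are tight. Slc1a1, a glutamate carrier, was at 12.9 FPKM in control replicate 1, with the nearest control at 24.2. Slc6a6, the taurine transporter, was at 10.8 FPKM in control replicate 2, with the nearest control at 18.9. None of these 4 genes was called in any comparison.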

How the results depend on the processing

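The call of Slc15a1, Slc6a4 and Slc6a9 in AOM/DSS against control, and its direction, held in all 12 fits without 1 library, and Slc15a1 and Slc6a9 also in 12 of 14 other settings, the exceptions being the GC-rich and the AT-rich libraries alone. No value changed direction while called. Members called there numbered 4, against 8 with library weights, 2 with only the groups compared, 0 in the AT-rich and 0 in the GC-rich libraries alone (which hold 1 control), and 3 to 5 without 1 library. The weights added Slc1a4, Slc36a1, Slc6a8 and Slc7a6. For all genes the 153 calls became 82, 288, 54, 238, 4 and 7 with replicate block, library weights, only the groups compared, GC covariate, AT-rich and GC-rich libraries, and 53 to 201 without 1 library. For curcumin against AOM/DSS the 2 members became 3 with library weights (adding Slc6a9, lower in curcumin) and 3 with no filter (adding Slc6a19), 1 with the replicate block and 0 in the AT-rich and the GC-rich libraries (0 to 2 without 1 library), and the 130 genes became 86, 468, 85, 272, 1 and 8 under the same 6 settings (48 to 149). For curcumin against control the 0 members became 1 with library weights (0 to 0 without 1 library). Its 17 genes became 11 with pseudocount 0.1, 7 with no filter, 2 with the replicate block, 491 with weights, 40 with the GC covariate and 0 in either GC set (4 to 35 without 1 library). The within-set fits have fewer samples, and for the other settings the cause was not tested.

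Same-numbered libraries did not deviate together in every pair (r from -0.287 to 0.456 for AOM/DSS and control, 0.036 to 0.357 for curcumin and AOM/DSS). For curcumin and AOM/DSS, r was 0.350, 0.301 and 0.357 for replicates 1, 2 and 3, and 0.036 for replicate 0. The labels do not say whether equal numbers share a source, and the GC-rich and AT-rich sets followed the numbers in part. With the replicate block Slc15a1 in curcumin against AOM/DSS had an adjusted p of 0.0561, and not every library correlated best with its own number. Genes with few reads, such as Slc43a3 and Slc6a19, limit what depth can show. Leaving out AOM/DSS replicate 3 for the counts of genes higher in mean in the peptidase and amino acid response lists was chosen after seeing the data.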
